A study of Mus musculus with 48 samples.

Results

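The 30 genes described here belong to the response that mammalian cells mount when unfolded protein collects in the endoplasmic reticulum (ER) or when amino acids run short. They were chosen by name, with earlier results of these data known, and all 30 were among the 24054 gene symbols of the deposited count table. They were split into an unfolded protein arm (UPR arm in the plots) of 12 genes (Xbp1, Hspa5, Dnajb9, Herpud1, Pdia4, Hsp90b1, Calr, Sdf2l1, Creld2, Manf, Edem1 and Sel1l) and an Atf4 arm of 18 genes (Atf4, Ddit3, Atf3, Trib3, Chac1, Sesn2, Ddit4, Ppp1r15a, Nupr1, Vldlr, Asns, Psat1, Phgdh, Shmt2, Mthfd2, Aldh1l2, Slc7a5 and Slc3a2). All 30 passed the filter on low counts in every fit.

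The deposited table gives gene counts of 48 mouse RNA-seq libraries, 3 in each of 16 groups, made to compare breast tumours and the myeloid cells within them. A first set of 24 came from 8 cultured breast tumour lines with no treatment named. T11, 4T1, 67NR and 2208L carry the strain label BALB/C, and AT3, PyMT-N, E0771 and PyMT-M the strain label C57BL/6. The E0771 line was grown in RPMI 1640 with HEPES and the other 7 in high-glucose DMEM, all with serum, so that medium and line cannot be told apart for E0771. The other 24 libraries were myeloid cells sorted out of tumours of 4 of these lines (AT3, E0771, 2208L and T11) grown in mice. Neutrophils were live CD45+ CD11b+ Ly6G+ cells with medium to low Ly6C, and macrophages were Ly6G- Ly6C- F4/80+. E0771 neutrophil library 1 and E0771 macrophage library 1 carry the strain label BALB/C, whereas C57BL/6 is given for all other sorted libraries from E0771 or AT3 tumours. The sorted libraries from T11 and 2208L tumours share a strain label, and the lines of those tumours carry BALB/C. The authors' column names add Epi to 2208L, 4T1, PyMT-N and AT3 and Mes to T11, 67NR, PyMT-M and E0771. The labels do not say that replicates were separate cultures or animals, so p-values measure only how far these libraries spread, and that spread may be technical. Passages ran from 15 to 20 for T11, 2208L and 4T1, and were 19 for 67NR, 7 for PyMT-M, 14 for PyMT-N and E0771 and 15 for AT3.

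Unfolded protein in the ER is sensed by Ire1 (Ern1), Atf6 and Perk (Eif2ak3). Ire1 splices Xbp1 mRNA, and spliced Xbp1 and cleaved Atf6 switch on chaperones such as Hspa5 (BiP) and the machinery that removes misfolded protein. Perk, and Gcn2 (Eif2ak4) when amino acids are scarce, phosphorylate eIF2alpha, which lowers translation as a whole and raises that of Atf4. Atf4 then drives amino acid synthesis, uptake and tRNA charging, and a stress branch with Ddit3 (Chop), Trib3 and Chac1. Gene counts do not separate spliced from unspliced Xbp1, and do not measure the translation of Atf4 mRNA.

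The motifs through which these factors act were searched in the promoters, 250 bases before to 50 after the start. A link between matches and the levels below was not tested. RefSeq promoters (GRCm38.p6) were matched for 27 of the 30 members by symbol. Members are counted by gene, with a match in any of its promoters (2 members had 2), and the total is counted by promoter. The ER stress element was searched as CCAAT and CCACG with 9 bases of any kind between them, on either strand. It was present for 4 of the 11 unfolded protein genes matched, for 0 of the 16 Atf4 arm genes, and in 39 of all 32851 promoters (0.119%). Its matches are shown in capitals in 30-base windows, 5′ to 3′ on the gene's strand, with the distance of the first matching base from the start.
Hspa5 (-65, chr2:34772020-34772049, plus strand): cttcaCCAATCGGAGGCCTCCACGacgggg
Hsp90b1 (-212, chr10:86705632-86705661, minus strand): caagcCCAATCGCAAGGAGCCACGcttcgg
Hsp90b1 (-107, chr10:86705527-86705556, minus strand): gagtgCGTGGTGAGGCACGATTGGtgagtt
Calr (-162, chr8:84847069-84847098, minus strand): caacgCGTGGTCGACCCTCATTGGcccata
Creld2 (-126, chr15:88819515-88819544, plus strand): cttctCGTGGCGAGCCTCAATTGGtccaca

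The amino acid response element, searched as TGATGNAA on either strand, was present for 6 of the 16 Atf4 arm genes and 1 of the 11 unfolded protein genes. Of all 32851 promoters, 1304 held it (3.97%). It is the kind of site to which Atf4 binds with a C/EBP partner. It is shown in capitals for the 6 Atf4 arm genes.
Asns (-23, chr6:7693214-7693243, minus strand): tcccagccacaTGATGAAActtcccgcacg
Atf3 (-110, chr1:191183425-191183454, minus strand): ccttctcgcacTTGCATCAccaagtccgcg
Chac1 (-193, chr2:119351038-119351067, plus strand): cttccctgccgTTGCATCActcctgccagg
Nupr1 (-110, chr7:126625562-126625591, minus strand): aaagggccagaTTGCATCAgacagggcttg
Trib3 (15, chr2:152344028-152344057, minus strand): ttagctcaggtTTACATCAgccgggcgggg
Vldlr (-200, chr19:27216809-27216838, plus strand): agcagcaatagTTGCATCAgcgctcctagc

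Herpud1, an ER membrane protein of the removal pathway, was the one member whose promoter matched motifs of both arms. It held the amino acid response element and ER stress element II, searched as ATTGG, any base and CCACG on either strand, which 12 of 32851 promoters held (0.0365%). Its 250 bases before the start are shown, with both matches in capitals. Herpud1 was also the one gene of its arm that was lower in PyMT-N than in PyMT-M (below). A link between the matches and that difference was not tested.
Herpud1 (chr8:94386179-94386428, plus strand): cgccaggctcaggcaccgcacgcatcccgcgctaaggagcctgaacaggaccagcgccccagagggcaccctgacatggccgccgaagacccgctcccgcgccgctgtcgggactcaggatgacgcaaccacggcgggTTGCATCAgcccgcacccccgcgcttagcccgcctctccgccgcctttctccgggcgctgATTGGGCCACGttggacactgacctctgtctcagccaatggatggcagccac
The promoter of Creld2, a folding factor with the first kind of ER stress element and no amino acid response element in this window, is set beside it.
Creld2 (chr15:88819396-88819645, plus strand): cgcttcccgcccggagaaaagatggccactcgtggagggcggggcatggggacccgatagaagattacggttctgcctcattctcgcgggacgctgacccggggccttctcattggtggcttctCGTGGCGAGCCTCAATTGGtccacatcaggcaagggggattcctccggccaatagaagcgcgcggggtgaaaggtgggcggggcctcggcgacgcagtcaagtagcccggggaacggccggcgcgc
The cyclic AMP response element TGACGTCA was present in the promoter of Ppp1r15a (Gadd34, the phosphatase subunit that reverses eIF2alpha phosphorylation) and in 588 of all promoters (1.79%). TGACGTGG, the unfolded protein response element, was in no member's window and in 222 of all promoters (0.676%). A match is a description of letters and not a measured binding site.

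Counts outside the ribosomal RNA precursor Rn45s ran from 1893268 to 5749088 per line library, 470712 to 1185233 per neutrophil library and 683150 to 1755895 per macrophage library. Levels are CPM (counts scaled to a common library total) with TMM factors, given per library or as mean ± SD of 3. Differences are on the log2 scale ± SE, from the edgeR quasi-likelihood test, and a gene passed at a Benjamini-Hochberg adjusted p under 0.05 over all genes tested. The 1452 olfactory and vomeronasal receptor genes, which are off in most tissues, stood for background. They took 618 to 2964 CPM in all in lines, 870 to 3245 in macrophages and 3861 to 18880 in neutrophils, most in T11 neutrophils (15370 ± 3099). Per kilobase of exon, 23 to 30 members were at least 10 times the receptor level in each line and 24 to 28 in each macrophage group. The number was 25 in 2208L, 21 in E0771, 12 in AT3 and 4 in T11 neutrophils.

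All 30 members differed among the 8 lines, as did 89.3% of all genes tested, so that this count says little about the members. As a description, the ranges were wider than over all genes. The members were chosen with earlier results of these data known, so this comparison is no test. The highest line exceeded the lowest by a median of 3.95-fold in the unfolded protein arm and 5.46-fold in the Atf4 arm, against 2.69-fold over the 17692 genes with at least 1 CPM in every line. Aldh1l2, a mitochondrial folate enzyme, had the widest range (33.5-fold), followed by Atf3 (20.4-fold) and Nupr1 (18.03-fold), and Mthfd2 (2.04-fold) and Sel1l (2.23-fold) the narrowest.

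**Figure D1:**
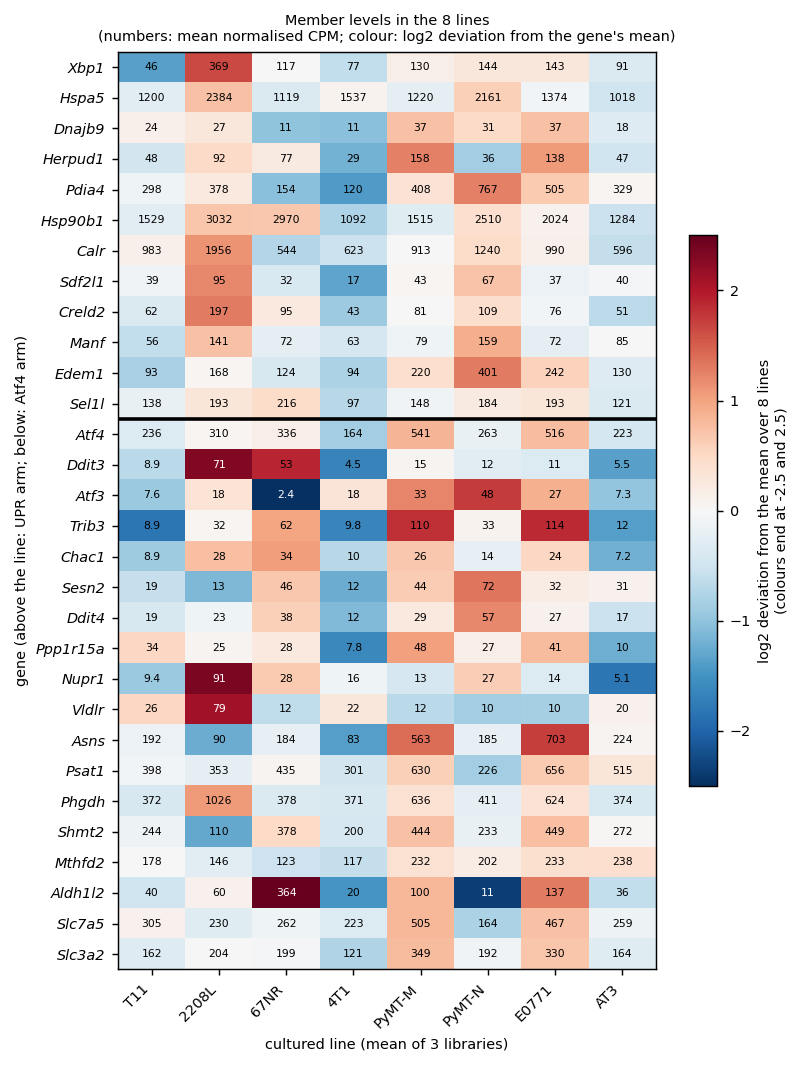
Levels of the 30 members (rows) in the 8 cultured lines (columns). Numbers are mean CPM over 3 libraries and colours are the log2 deviation of a line from the mean of the gene, ending at -2.5 and 2.5; the black line separates the unfolded protein arm, above, from the Atf4 arm. 2208L and PyMT-N are high in most of the upper rows, E0771 and PyMT-M in the amino acid rows, and 4T1 is low in most rows.

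The arms were high in different lines. Of the 12 unfolded protein genes, 6 were highest in 2208L and 3 in PyMT-N, and 8 had each of these lines among the top pair. Of the 18 Atf4 arm genes, 4 each were highest in 2208L, PyMT-M and E0771, and 10 had PyMT-M and 10 had E0771 among the top pair. 4T1 was lowest for 7 genes of the unfolded protein arm and 9 of the Atf4 arm. In each library, the median over an arm's genes of the log2 deviation from the gene's mean over the lines was taken. As mean ± SD of 3 libraries, this median was 0.69 ± 0.06 in 2208L, 0.53 ± 0.03 in PyMT-N and -0.77 ± 0.19 in 4T1 for the unfolded protein arm. For the Atf4 arm it was 0.71 ± 0.07 in PyMT-M, 0.64 ± 0.18 in E0771 and -0.75 ± 0.06 in 4T1. Across the 8 line means, the median Spearman correlation between pairs of genes was 0.52 within the unfolded protein arm (66 pairs), 0.40 within the Atf4 arm (153 pairs) and 0.33 between the arms (216 pairs). Among Atf4, Asns, Psat1, Shmt2, Mthfd2, Slc7a5 and Slc3a2 it was 0.62 (21 pairs). That subset was picked by hand and leaves out the enzymes Phgdh and Aldh1l2, so its median does not stand for all amino acid genes. Correlations with genes of the subset ran from 0.17 to 0.90 for Phgdh and from 0.02 to 0.76 for Aldh1l2. These correlations are descriptions over 8 points that share libraries and scaling.

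Xbp1, the transcription factor spliced by Ire1, was at 354, 378 and 374 CPM in the 3 libraries of 2208L and at 48.7, 46.7 and 42.7 in T11. The other 6 lines had means between 76.5 (4T1) and 144 (PyMT-N), and every 2208L library was above every other line library. The order was 2208L, PyMT-N, E0771, PyMT-M, 67NR, AT3, 4T1 and T11, in which the differences between neighbours from PyMT-N to 67NR and between AT3 and 4T1 did not pass. Hspa5, the main ER chaperone, was at 2398, 2425 and 2331 in 2208L and 2030, 2145 and 2309 in PyMT-N, whose difference did not pass (adjusted p = 0.111), and at 873, 1011 and 1171 in AT3, the lowest line. Edem1, which hands misfolded glycoproteins to degradation, had another order. It was at 374, 408 and 420.5 in PyMT-N, above E0771 (mean 242) and PyMT-M (mean 220), whose difference did not pass (adjusted p = 0.582), and lowest in T11 (93.1). Pdia4, a protein disulfide isomerase, was likewise highest in PyMT-N (767 ± 44.1) and lowest in 4T1 (120.1 ± 9.65).

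Among the stress genes of the Atf4 arm, Ddit3 (Chop) was high in a pair of lines. It was at 76.5, 68.3 and 67.2 CPM in 2208L and 54.2, 52.5 and 52.5 in 67NR, and the means of the other 6 lines lay between 4.47 and 14.8, with no overlap. Trib3, a pseudokinase induced by Atf4, was instead at 107, 131 and 102 in E0771 and 122, 109 and 99.6 in PyMT-M, above all libraries of the other lines. Atf3, a stress-induced factor, was highest in PyMT-N (45.5, 47.9 and 50.9) and lowest in 67NR (2.04, 2.08 and 2.95). Ddit3, Trib3 and Atf3 thus each had a different line at the top. Nupr1, a small stress-induced chromatin protein, was highest in 2208L (102, 84.2 and 88.4), against means of 5.07 (AT3) to 28.2 (67NR) elsewhere.

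The amino acid enzymes and carriers were mostly highest in E0771 and PyMT-M. Asns (asparagine synthetase) was at 644, 763 and 703 CPM in E0771 and 565, 547 and 576 in PyMT-M, and at 92.2, 71.4 and 83.99 in 4T1. No library of the other 6 lines passed 264 CPM. Atf4 itself followed, at 541 ± 7.03 in PyMT-M and 516 ± 74.5 in E0771, whose difference did not pass (adjusted p = 0.658), with 164 to 336 elsewhere. Psat1 of serine synthesis, Shmt2 of the mitochondrial folate pathway and Slc7a5 with Slc3a2, the subunits of a leucine carrier, also had E0771 and PyMT-M as their top pair. Exceptions were Mthfd2 of the same folate pathway, highest in AT3 (mean 238, against 233 in E0771 and 232 in PyMT-M), Phgdh, the first enzyme of serine synthesis, highest in 2208L (1020, 1017 and 1041), and Aldh1l2, highest in 67NR (386, 363 and 344) and lowest in PyMT-N (10.9, 10.1 and 11.5). Shmt2 was lowest in 2208L (104, 119 and 106), the line with the most Phgdh.

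Of the 28 pairs of lines, PyMT-M with E0771 had the fewest member differences. 5 of 30 members differed between them (3 of the unfolded protein arm and 2 of the Atf4 arm, all lower in PyMT-M), where 6.43% of all genes did. 2208L and AT3 differed in 29 (52.1% of all genes), and T11 and AT3 in 11 (38.3%). The 28 pairs, with 30 members tested in each, held 657 member calls in all. Of all genes, between 6.43% (PyMT-M and E0771) and 66.4% (4T1 and PyMT-N) differed in a pair. The pair PyMT-M and E0771 grew in different media.

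**Figure D2:**
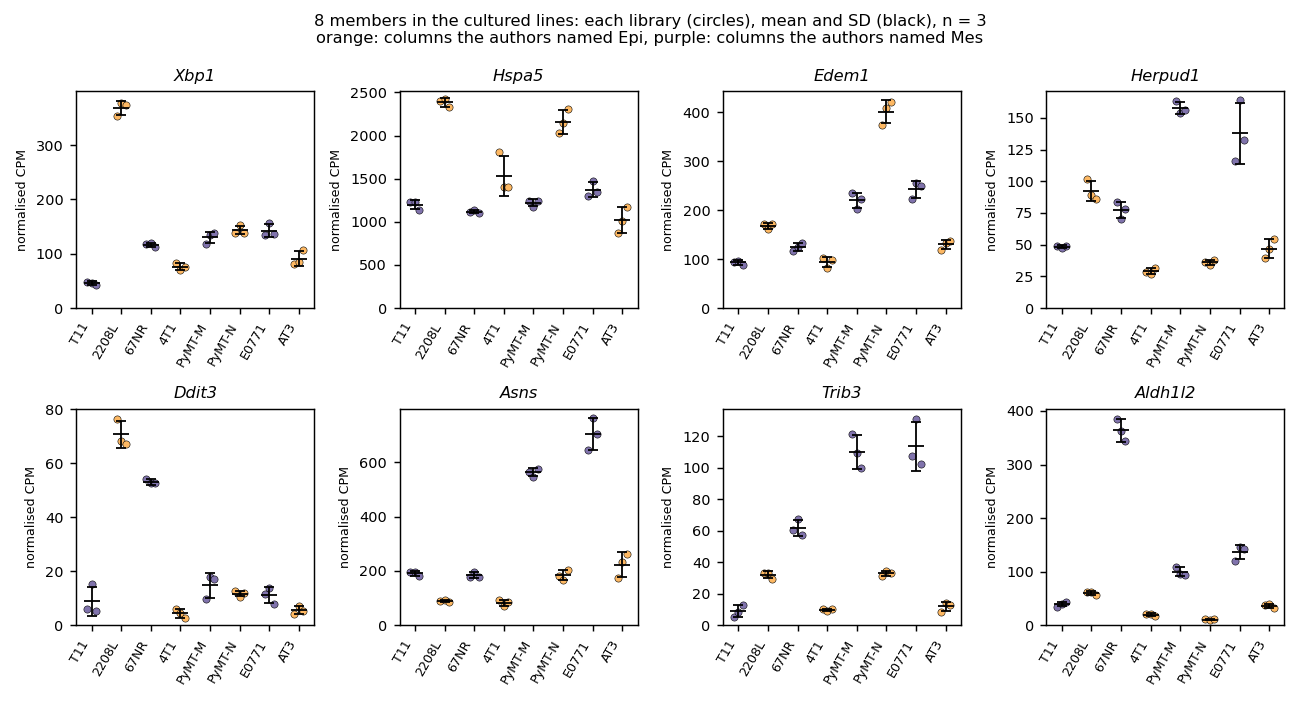
CPM of 8 members in each library of the 8 lines (dots; orange for lines with the suffix Epi, purple for Mes), with the mean and SD of 3 libraries. Xbp1 stands highest in 2208L, Edem1 in PyMT-N, Herpud1, Asns and Trib3 in PyMT-M and E0771, Ddit3 in 2208L and 67NR, and Aldh1l2 in 67NR.

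Within each strain and, for 3 of the 4 pairs, within one medium, the column names allow an Epi line to be set against a Mes line. The epithelial markers (Epcam, Cdh1 and keratins) did not follow the name in AT3. They summed to 97.8 to 107 CPM in AT3 and 242 to 258 in E0771. The sums were 5834 to 6136 in 2208L, 2759 to 3325 in 4T1 and 6951 to 7261 in PyMT-N. In 2208L against T11, 11 of 12 unfolded protein genes were higher, and 10 of the Atf4 arm were higher and 6 lower, where 22.5% of all genes were higher and 19.1% lower. The median difference was 1.00 in the unfolded protein arm and 0.37 in the Atf4 arm (-0.04 over all genes). Xbp1 led its arm (3.00 ± 0.11, adjusted p = 1.3e-41), followed by Creld2 (1.65 ± 0.11, adjusted p = 2.58e-23) and Manf, a secreted ER factor (1.33 ± 0.12, adjusted p = 1.5e-16). Hspa5 was higher by 1.00 ± 0.09 and Calr (calreticulin) by 1.00 ± 0.09. Dnajb9, a co-chaperone, was the exception at 28.8, 29.4 and 23.9 against 26.9, 21.1 and 25.1 CPM, ranges that overlapped (adjusted p = 0.47).

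The Atf4 arm divided in this pair. Higher in 2208L were the stress genes Nupr1 (3.30 ± 0.18, adjusted p = 1.99e-30), Ddit3 (2.93 ± 0.20, adjusted p = 2.46e-23), Trib3 (1.92 ± 0.22), Chac1, which degrades glutathione (1.60 ± 0.22), and Atf3 (1.31 ± 0.26), with Vldlr, a lipoprotein receptor (1.58 ± 0.16). Phgdh (1.47 ± 0.09, adjusted p = 3.25e-26), Aldh1l2 (0.61 ± 0.14), Atf4 (0.39 ± 0.10) and Slc3a2 (0.34 ± 0.10) were higher too. Of the enzymes and carriers Asns (-1.08 ± 0.11), Shmt2 (-1.15 ± 0.11), Slc7a5 (-0.40 ± 0.11) and Mthfd2 (-0.28 ± 0.10) were lower, as were the stress genes Sesn2 (-0.52 ± 0.22) and Ppp1r15a (-0.43 ± 0.18). The count of 6 lower became 3 without 2208L line library 1 or 3, and was 3 to 4 whichever library of the pair was left out. Of related genes, 13 of 16 other ER folding and removal genes were higher and 1 lower (Dnajc3 2.07, Dnajb11 1.51 and Ero1lb 1.36), and 3 of 6 sensors and eIF2alpha kinases were higher. Of 12 tRNA synthetases 6 were higher and 3 lower (Mars 1.54, Lars 1.38), and of 14 other amino acid genes 4 and 3 (the glutamine carrier Slc1a5 -2.21).

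4T1 and 67NR derive from the same mouse mammary tumour. In 4T1 against 67NR, 2 unfolded protein genes were higher and 8 lower, and 2 Atf4 arm genes were higher and 13 lower, where 22.1% of all genes were higher and 25.4% lower. The medians were -0.42 and -0.89 (0.08 over all genes). Aldh1l2 was at 21.3, 21.96 and 17.4 CPM in 4T1 and 386, 363 and 344 in 67NR (-4.08 ± 0.13, adjusted p = 8.23e-48). Ddit3 (-3.51 ± 0.24, adjusted p = 4.13e-24), Trib3 (-2.56 ± 0.18), Sesn2, a sestrin that restrains mTORC1 (-1.82 ± 0.18), and Ppp1r15a (-1.79 ± 0.22) were lower as well. Against these, Atf3 was at 22.4, 18.2 and 13.8 in 4T1 and 2.04, 2.08 and 2.95 in 67NR, without overlap (2.99 ± 0.29, adjusted p = 2.11e-15).

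Chaperones of the ER went apart in the same pair. Hsp90b1 (Grp94) was at 1255, 974 and 1047 CPM in 4T1 and 2990, 3001 and 2920 in 67NR (-1.36 ± 0.09, adjusted p = 2.98e-24). Hspa5 was at 1804, 1406 and 1400 in 4T1 and 1117, 1142 and 1099 in 67NR (0.54 ± 0.09, adjusted p = 1.38e-07), a call lost when all 48 libraries were fitted together (adjusted p = 0.177). Both promoters hold the ER stress element shown above. Herpud1 (-1.31 ± 0.13), Sel1l, the adaptor of the ER ubiquitin ligase (-1.07 ± 0.10), and Creld2 (-1.06 ± 0.12) were lower. Of the related lists, 7 of 9 tested integrated stress genes were lower (Atf5 -3.74, Vegfa -2.39 and Sqstm1 -1.82), as were 9 of 14 amino acid genes (the glycine carrier Slc6a9 -2.87), 7 of 12 tRNA synthetases with 2 higher (Cars -1.18), 6 of 16 ER folding genes with 1 higher (Derl2 -0.90), and 3 of 6 sensors and kinases with 2 higher. The share of higher calls among all genes was 46.6% here and 60.8% with factors from well expressed genes, under which 6 members were higher and 19 lower.

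The arms moved in opposite directions in PyMT-N against PyMT-M. 9 unfolded protein genes were higher and 1 lower, and 4 Atf4 arm genes were higher and 11 lower, where 23.3% of all genes were higher and 21.8% lower. The medians were 0.57 and -0.85 (-0.10 over all genes). Manf (1.03 ± 0.12, adjusted p = 5.35e-13), Pdia4 (0.93 ± 0.09), Edem1 (0.88 ± 0.09), Hspa5 (0.84 ± 0.09) and Hsp90b1 (0.74 ± 0.09) were higher in PyMT-N. Herpud1 alone of its arm was lower, at 36.7, 33.6 and 37.5 CPM against 163, 154 and 156 (-2.11 ± 0.12, adjusted p = 6.07e-29). Xbp1 was at 139, 153 and 139 against 119, 134 and 138 CPM, ranges that nearly touched (adjusted p = 0.234).

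In the Atf4 arm of the PyMT pair, Aldh1l2 (-3.18 ± 0.15, adjusted p = 7.87e-34), Trib3 (-1.73 ± 0.13), Slc7a5 (-1.61 ± 0.11), Asns (-1.59 ± 0.10), Psat1 (-1.47 ± 0.09) and Atf4 (-1.03 ± 0.10) were lower in PyMT-N. Nupr1 (1.06 ± 0.19), Ddit4, which restrains mTORC1 (0.98 ± 0.16), Sesn2 (0.73 ± 0.14) and Atf3 (0.54 ± 0.16) were higher. The related lists divided as the arms did. 9 of 16 ER folding genes were higher (Hyou1 1.24, Pdia3 1.04), and 4 of 6 sensors and kinases were higher (Ern1 0.64, Atf6 0.62). 8 of 12 tRNA synthetases were lower and 1 higher (Tars -0.75, Aars -0.65), and 10 of 14 amino acid genes were lower and 2 higher (Gpt2 -2.39 and Pycr1 -2.08, against Cth 2.89). PyMT-M was at passage 7 and PyMT-N at passage 14, and the part of passage was not tested.

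In AT3 against E0771 most genes of both arms were lower. 1 unfolded protein gene was higher and 10 lower, and 1 Atf4 arm gene was higher and 15 lower, where 19.0% of all genes were higher and 26.8% lower. The medians were -0.59 and -0.92 (0.05 over all genes). Trib3 was at 8.73, 14.4 and 12.8 CPM in AT3 and 107, 131 and 102 in E0771 (-3.15 ± 0.14, adjusted p = 2.32e-35). Ppp1r15a (-1.98 ± 0.18), Aldh1l2 (-1.83 ± 0.11), Atf3 (-1.79 ± 0.20), Chac1 (-1.67 ± 0.20) and Asns (-1.59 ± 0.09) were lower by similar amounts. Herpud1 (-1.50 ± 0.11, adjusted p = 7.99e-22), Dnajb9 (-0.99 ± 0.16) and Edem1 (-0.83 ± 0.09) led the unfolded protein arm. The higher ones were Vldlr (1.02 ± 0.20) and Manf (0.29 ± 0.11, adjusted p = 0.0312). This count of 2 became 1 without E0771 line library 1 or 3 or AT3 line library 3, and 4 with factors from well expressed genes, under which 23 members were lower. 11 of 12 tRNA synthetases were lower (Sars -1.46, Tars -1.31), as were 11 of 14 amino acid genes with 1 higher (Slc7a3 -1.86, Psph -1.83) and 6 of 9 integrated stress genes with 1 higher (Gdf15 -2.07). The 2 lines differed in medium, which cannot be told apart from line, and the all-gene share of higher calls went from 41.6% to 62.9% with factors from well expressed genes.

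**Figure D3:**
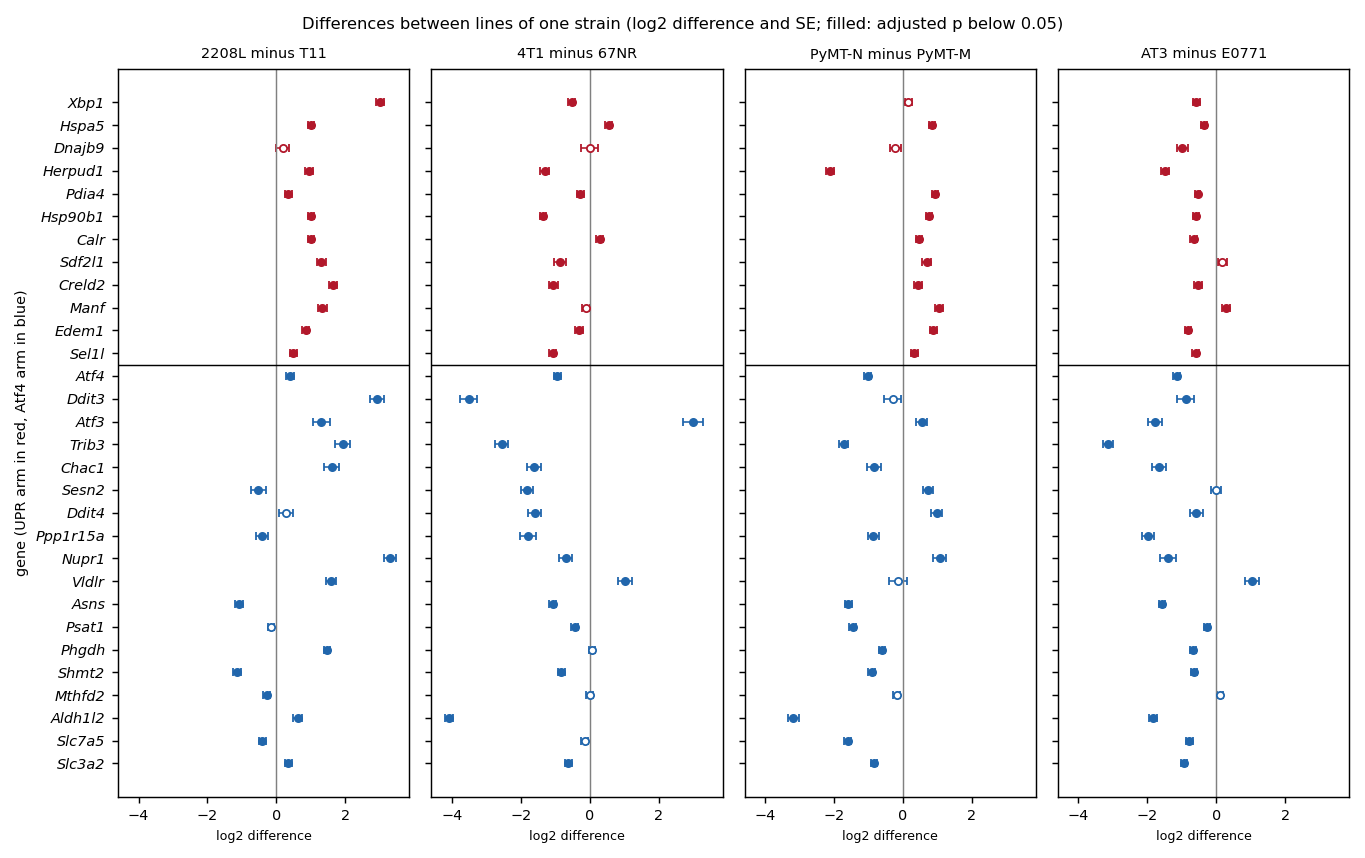
Log2 difference ± SE of each member in the 4 same-strain pairs of lines, column name Epi minus column name Mes. Filled points had adjusted p under 0.05, with the unfolded protein arm in red and the Atf4 arm in blue. Most red points lie above 0 in 2208L against T11 and in PyMT-N against PyMT-M, and most points of both colours lie below 0 in 4T1 against 67NR and AT3 against E0771.

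In neutrophils from the 4 tumours, 18 of 30 members differed between tumours (9 of each arm), where 18.6% of all genes did. Xbp1 was at 164, 281 and 189 CPM in 2208L, 26.6, 19.6 and 17.8 in T11, 95.96, 349 and 272 in AT3 and 83.9, 103 and 99.8 in E0771. T11 libraries were all below the others, and AT3 library 1 was at the level of E0771. Hspa5 was at 693, 695 and 541 in 2208L and 116, 43.1 and 73.7 in T11, with AT3 (125, 282 and 163) and E0771 (138, 137 and 122) between. Only 10 members differed with T11 tumours left out, a choice made after values were seen: Xbp1, Hspa5, Pdia4, Hsp90b1, Calr, Manf, Atf4, Atf3, Sesn2 and Shmt2. The number was 12 with 2208L tumours left out. Both of these fits had fewer libraries. Their counts are not set against all genes, so they say little about the members as a set.

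Neutrophils of 2208L against T11 tumours showed 11 of 12 unfolded protein genes and 8 of 18 Atf4 arm genes higher, where 17.1% of all genes were higher and 1.68% lower. No member was lower by edgeR, 0 at an unadjusted p under 0.05 and 0 with DESeq2. The medians were 2.02 and 0.86 (-0.18 over all genes). Xbp1 (3.17 ± 0.36, adjusted p = 4.23e-09), Hspa5 (2.92 ± 0.37, adjusted p = 8.3e-08), Hsp90b1 (2.69 ± 0.34, adjusted p = 4.74e-08) and Calr (2.66 ± 0.35) led. Atf4 was at 150.5, 143 and 139.7 CPM against 34.05, 15.7 and 17.8, without overlap (2.54 ± 0.36, adjusted p = 5.08e-07). Ppp1r15a was at 149, 149.8 and 146 against 64.4, 27.4 and 38.1 (1.64 ± 0.34, adjusted p = 0.000207). Slc3a2 (1.83 ± 0.34), Ddit3 (1.70 ± 0.42) and Slc7a5 (1.41 ± 0.37) were higher as well, and so was Nupr1 (1.61 ± 0.49, adjusted p = 0.0144), which did not pass with DESeq2 (adjusted p = 0.0578).

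Amino acid enzymes had overlapping levels in these neutrophils. Asns was at 27.2, 30.9 and 31.1 CPM against 22.2, 29.8 and 14.4, Psat1 at 30.4, 24.9 and 16.99 against 25.9, 24.3 and 23.7, and Mthfd2 at 16.01, 14.1 and 26.4 against 18.5, 14.1 and 17.8, and all 3 pairs of ranges overlapped. Of the related lists, 12 of 16 ER folding genes (Pdia6 2.86, Sec61b 2.80 and Ero1l 2.79), 3 of 6 sensors and kinases (Atf6 1.38), 4 of 12 tRNA synthetases (Nars 1.46), 4 of 9 integrated stress genes (Sqstm1 2.07) and 1 of 14 amino acid genes (Slc38a2 1.63) were higher.

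T11 neutrophil libraries were also those with the highest receptor share and TMM factors of 2.18 to 2.60, against 1.26 to 1.41 in 2208L. In T11, 1 unfolded protein gene and 3 Atf4 arm genes reached 10 times the receptor level per kilobase. With no scaling factors, 9 members were higher and 1 lower (Psat1, -0.88, adjusted p = 0.0382), and the share of higher calls among all genes fell from 91.1% to 31%. DESeq2 gave 14 higher, and both other sets of factors 13. Without T11 neutrophil library 2 the count was 12. Markers of other cells moved with the contrast. The macrophage markers (8 of 8 at 10 CPM or more in both groups, none at 0) summed to 3631 to 5682 CPM in 2208L and 266.5 to 572.9 in T11. The epithelial markers summed to 370.1 to 396.4 (5 of 7 at 10 CPM or more) and 80.7 to 94.7 (2 of 7), and the 7 neutrophil markers in the table to 4869 to 7975 and 979 to 3177. Fibroblast (142.5 to 200.1 and 181.1 to 219.1), B and plasma cell (39.6 to 71.7 and 82.3 to 89.9), dendritic (49.0 to 81.2 and 85.9 to 106.6) and endothelial sums (97.7 to 143.5 and 179.1 to 206.2) were not higher in 2208L, and T and NK sums overlapped. The part of these cells and of the receptor share in the result was not tested, and in sorted bulk samples fewer cells of a type and less RNA per cell cannot be told apart.

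Neutrophils of AT3 against E0771 tumours showed few differences, and 3 of the 4 calls (Xbp1, Sesn2 and Phgdh, not Shmt2) were lost when one or another library was left out. 2 members were higher and 2 lower, where 1.61% of all genes were higher and 0.551% lower. Xbp1 (1.29 ± 0.32, adjusted p = 0.0178) and Sesn2 (1.19 ± 0.33, adjusted p = 0.0402) were higher in AT3, and Shmt2 (-1.60 ± 0.36, adjusted p = 0.00674) and Phgdh (-1.99 ± 0.57, adjusted p = 0.0458) lower. AT3 library 1 stood apart from libraries 2 and 3 in several members, with Dnajb9 at 42.1, 214 and 144 CPM and Atf4 at 56.95, 204 and 117. Without it 5 members were higher and 1 lower. Without E0771 library 1 (labelled BALB/C), 2 or 3, 0 were higher and 1 lower, and without AT3 library 2 or 3, 0 were higher. At an unadjusted p under 0.05, 5 members were higher and 5 lower.

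**Figure D4:**
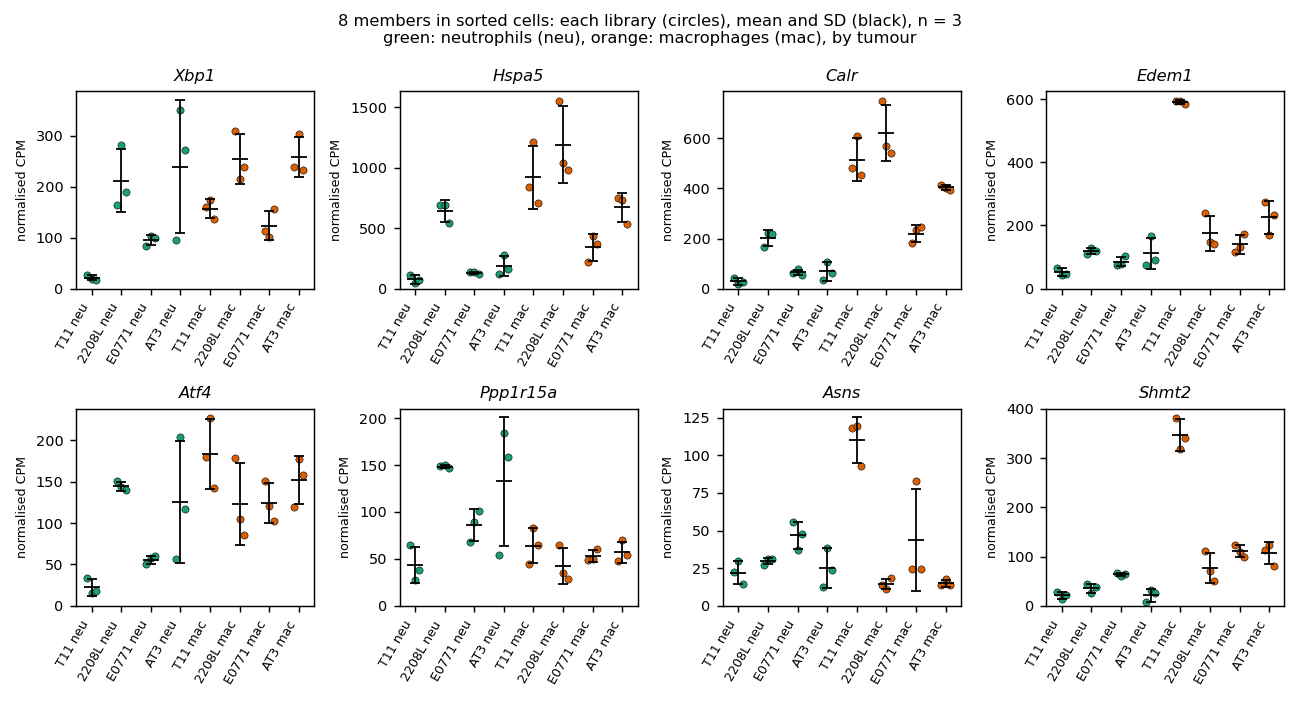
CPM of 8 members in each neutrophil library (green) and macrophage library (orange) of the 4 tumours, with the mean and SD of 3 libraries. Chaperones are lowest in T11 neutrophils and higher in macrophages, Ppp1r15a has the higher mean in neutrophils of 3 of the 4 tumours, and Edem1, Asns and Shmt2 stand out in T11 macrophages.

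In macrophages, 22 of 30 members differed between tumours (9 of the unfolded protein arm and 13 of the Atf4 arm), where 39.2% of all genes did. Of the amino acid enzymes, Shmt2, Asns and Mthfd2 had their highest levels in T11 macrophages. Shmt2 was at 382, 318 and 340.5 CPM in T11, 111, 71.1 and 49.7 in 2208L, 114, 124 and 81.4 in AT3 and 124, 109 and 99.8 in E0771. Asns was at 118, 119.5 and 92.6 in T11 and at 14.1, 11.4 and 18.3 in 2208L, 13.7, 17.6 and 13.7 in AT3 and 24.2, 82.9 and 24.2 in E0771. For both genes every T11 library was above every library of the other tumours. Mthfd2, the folate enzyme that acts beside Shmt2, was at 65.2, 98.8 and 69.9 in T11, 63.8, 51.2 and 35.97 in AT3, 24.2, 29.1 and 32.5 in E0771 and 4.13, 12.8 and 5.08 in 2208L. Edem1 was at 594, 594 and 585 in T11, and no library of another tumour passed 274.

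In macrophages of 2208L against T11 tumours, 2 unfolded protein genes were higher and 1 lower, and 1 Atf4 arm gene was higher and 7 lower, where 8.12% of all genes were higher and 7.46% lower. The medians were 0.50 and -0.40 (0.11 over all genes). Mthfd2 (-3.31 ± 0.39, adjusted p = 6.69e-09), Asns (-2.90 ± 0.39, adjusted p = 1.51e-07) and Shmt2 (-2.14 ± 0.32, adjusted p = 1.38e-06) were lower in 2208L, with Psat1 (-1.22 ± 0.30), Phgdh (-1.52 ± 0.54, adjusted p = 0.0458) and Nupr1 (-1.35 ± 0.43). The Phgdh call was lost with DESeq2 (adjusted p = 0.0654), with either other set of scaling factors, and without T11 library 2 or 3 or 2208L library 1 or 2. Chac1 was at 13.97, 36.8 and 25.4 CPM in T11 and 0, 3.56 and 0 in 2208L, which rests on 5 counts in all (adjusted p = 0.00011). Atf3 went the other way, at 302, 213 and 161 in 2208L and 33.4, 81.4 and 96.3 in T11 (1.71 ± 0.36, adjusted p = 0.000422). Edem1 (-1.72 ± 0.30) was lower, and Herpud1 (1.23 ± 0.31) and Pdia4 (1.00 ± 0.28) were higher.

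The tRNA synthetases went with the enzymes in these macrophages: 9 of 12 were lower in 2208L (Tars -1.81, Iars -1.64 and Yars -1.40). Of 14 other amino acid genes 2 were lower and 1 higher (Slc1a5 -2.63), of 16 ER folding genes 2 and 1, and of 9 integrated stress genes 2 were higher (Gdf15 3.99). The count of members higher was 9 with DESeq2, with both other sets of factors and with all 48 libraries fitted together, and that of members lower was 5 without 2208L macrophage library 2. The share of higher calls among all genes rose from 52.1% to between 62.1% and 65.5% under other scalings. Macrophage markers summed to 5810 to 8014 CPM in T11 and 13770 to 27200 in 2208L. Epithelial markers summed to 20.9 to 34.9 in T11 and 304 to 406 in 2208L, with 0 and 5 of the 7 at 10 CPM or more. The neutrophil markers summed to 3170 to 9002 in T11, of which Mmp9 alone was 6419 ± 3009 with 2 of 7 at 10 CPM or more, and to 215.2 to 306.6 in 2208L. T and NK markers summed to 10.1 to 18.2 in T11 and 71.8 to 121 in 2208L. The part of other cells was not tested.

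In macrophages of AT3 against E0771 tumours, 6 unfolded protein genes were higher and 6 Atf4 arm genes were lower, where 9.87% of all genes were higher and 12.6% lower. The medians were 0.70 and -0.41 (-0.17 over all genes). At an unadjusted p under 0.05, 7 and 0 of the first arm and 2 and 7 of the second were higher and lower. Hsp90b1 was at 558, 478 and 474 CPM in AT3 and 121, 270.3 and 293 in E0771 (1.10 ± 0.31, adjusted p = 0.00916), without overlap. Xbp1 (1.02 ± 0.32), Sdf2l1, an ER chaperone partner (1.70 ± 0.50), Hspa5 (0.93 ± 0.35), Calr (0.83 ± 0.32) and Sel1l (0.76 ± 0.29) were the others, at adjusted p from 0.0128 to 0.049. E0771 macrophage library 1, labelled BALB/C, had the lowest Hspa5, Hsp90b1 and Calr of its group, and without it the adjusted p of the 6 was 0.0539 to 0.187. Without E0771 library 2, AT3 library 1 or AT3 library 2 the higher count was 2, 3 and 1. With no scaling factors 0 were higher and 11 lower, and the share of higher calls among all genes fell from 44.0% to 9.83%.

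Genes of the Atf4 arm went the other way in that contrast. Phgdh (-2.44 ± 0.61, adjusted p = 0.00361), Asns (-1.56 ± 0.40, adjusted p = 0.00477), Ddit3 (-1.53 ± 0.45, adjusted p = 0.0122), Aldh1l2 (-1.21 ± 0.45, adjusted p = 0.0438) and Sesn2 (-0.90 ± 0.34, adjusted p = 0.0484) were lower in AT3. Vldlr was at 1.96, 0 and 0 CPM in AT3, from 2 counts in all, and 9.07, 6.46 and 9.83 in E0771 (adjusted p = 0.00059). The count of 6 lower was 3 without E0771 macrophage library 2 or AT3 macrophage library 3. Of 16 ER folding genes 4 were higher (P4hb 1.42, Pdia3 1.19), and of 9 integrated stress genes 3 were higher and 1 lower (Vegfa 1.82, Gdf15 -2.73). Dendritic markers summed to 133 to 476 CPM in E0771 and 24.3 to 32.4 in AT3, and macrophage markers to 5265 to 9000 and 19640 to 22670, and their part was not tested.

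Within tumours, macrophages had more unfolded protein arm RNA than neutrophils. Averaged over the 4 tumours, 10 of 12 unfolded protein genes were higher, and 7 Atf4 arm genes were higher and 7 lower, where 31.2% of all genes were higher and 45.4% lower. The medians were 1.49 and -0.04 (-0.43 over all genes). Calr (2.45 ± 0.17, adjusted p = 2.64e-17), Pdia4 (2.17 ± 0.15, adjusted p = 5.38e-17), Hsp90b1 (2.10 ± 0.16), Hspa5 (1.85 ± 0.18) and Sdf2l1 (1.70 ± 0.27) led. Calr was at 480.4, 611 and 452 CPM in T11 macrophages and 43.7, 17.2 and 26.3 in T11 neutrophils, and at 414, 404 and 396 in AT3 macrophages and 34.3, 108 and 64.02 in AT3 neutrophils. Within each of the 4 tumours, all 3 macrophage libraries were above all 3 neutrophil libraries for Calr and Pdia4. Dnajb9 (-0.22 ± 0.18, adjusted p = 0.278) and Creld2 (0.41 ± 0.23, adjusted p = 0.0923) did not pass.

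Genes of the Atf4 arm went both ways between the 2 cell types. The stress genes Chac1 (-1.46 ± 0.36), Ddit4 (-1.33 ± 0.33), Ppp1r15a (-0.84 ± 0.17), Ddit3 (-0.73 ± 0.22) and Sesn2 (-0.55 ± 0.17) were lower in macrophages, with Aldh1l2 (-0.86 ± 0.21). Vldlr was lower too (adjusted p = 1.35e-13), at -2.05 ± 0.43 in E0771 and -1.76 ± 0.39 in T11, with -1.07 ± 0.38 in 2208L (adjusted p = 0.0651) and AT3 resting on 2 macrophage counts. Shmt2 (1.98 ± 0.17, adjusted p = 2.56e-14), Nupr1 (1.35 ± 0.23), Slc3a2 (1.20 ± 0.16), Psat1 (1.05 ± 0.16), Atf4 (0.99 ± 0.17), Mthfd2 (0.70 ± 0.19) and Slc7a5 (0.59 ± 0.18) were higher. All 12 tRNA synthetases were higher in macrophages (Nars 1.80, Wars 1.74), as were 14 of 16 ER folding genes with 2 lower (Pdia3 1.91, Pdia6 1.89) and 5 of 6 sensors and kinases (Atf6 1.08). With no scaling factors 14 members were higher and 12 lower, and the share of higher calls among all genes moved from 40.7% to 18%. In Vldlr, Aldh1l2 and Chac1, neutrophil levels were at or near the receptor background in some tumours, whose share was 3861 to 18880 CPM in neutrophils and 870 to 3245 in macrophages, and its part was not tested.

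By tumour and in either direction, 22 members differed between the cell types in T11, 12 in 2208L, 10 in E0771 and 21 in AT3, where 68.5%, 9.12%, 18.4% and 51.9% of all genes did. Genes of the unfolded protein arm were higher in macrophages in each tumour: 11 in T11, 7 in 2208L, 6 in E0771 and 8 in AT3, with 1 lower in AT3 (Dnajb9, adjusted p = 0.0495). The Atf4 arm had 8 higher and 3 lower in T11, 1 and 4 in 2208L, 3 and 1 in E0771 and 6 and 6 in AT3. In 2208L the count of 8 members higher became 5, 5 and 3 without neutrophil library 1, 2 or 3 and 2 without macrophage library 1, and that of 4 lower became 1 without neutrophil library 1 and 2 without macrophage library 1. Xbp1 showed the contrast between tumours: macrophages exceeded neutrophils by 2.73 ± 0.35 in T11, against 0.29 ± 0.31 in 2208L, 0.31 ± 0.32 in E0771 and 0.04 ± 0.31 in AT3. Atf4 was higher in macrophages by 2.88 ± 0.36 in T11 and by 1.10 ± 0.33 in E0771, and its difference was -0.21 ± 0.32 in 2208L and 0.20 ± 0.32 in AT3. The macrophage markers summed to a mean of 461 CPM in T11 neutrophils, 662 in E0771, 2414 in AT3 and 4832 in 2208L neutrophils. In macrophages of T11, E0771, AT3 and 2208L these means were 7209, 7409, 21400 and 19150. The part of other cells in the differences between tumours was not tested.

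The difference between tumours was itself tested. It passed for 19 members (7 of the unfolded protein arm and 12 of the Atf4 arm), where 28.2% of all genes passed. With T11 tumours left out it passed for 4, namely Ddit3, Sesn2, Vldlr and Mthfd2, and with 2208L tumours left out for 16. The smaller fits had fewer libraries. Their counts are not set against all genes, so the drop says little about the members as a set. Sesn2 had a difference of -1.69 ± 0.34 in AT3, and differences of -0.32 ± 0.36 in T11, -0.58 ± 0.33 in 2208L and 0.41 ± 0.34 in E0771. These within-tumour contrasts use the same libraries as the contrasts between tumours given above.

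**Figure D5:**
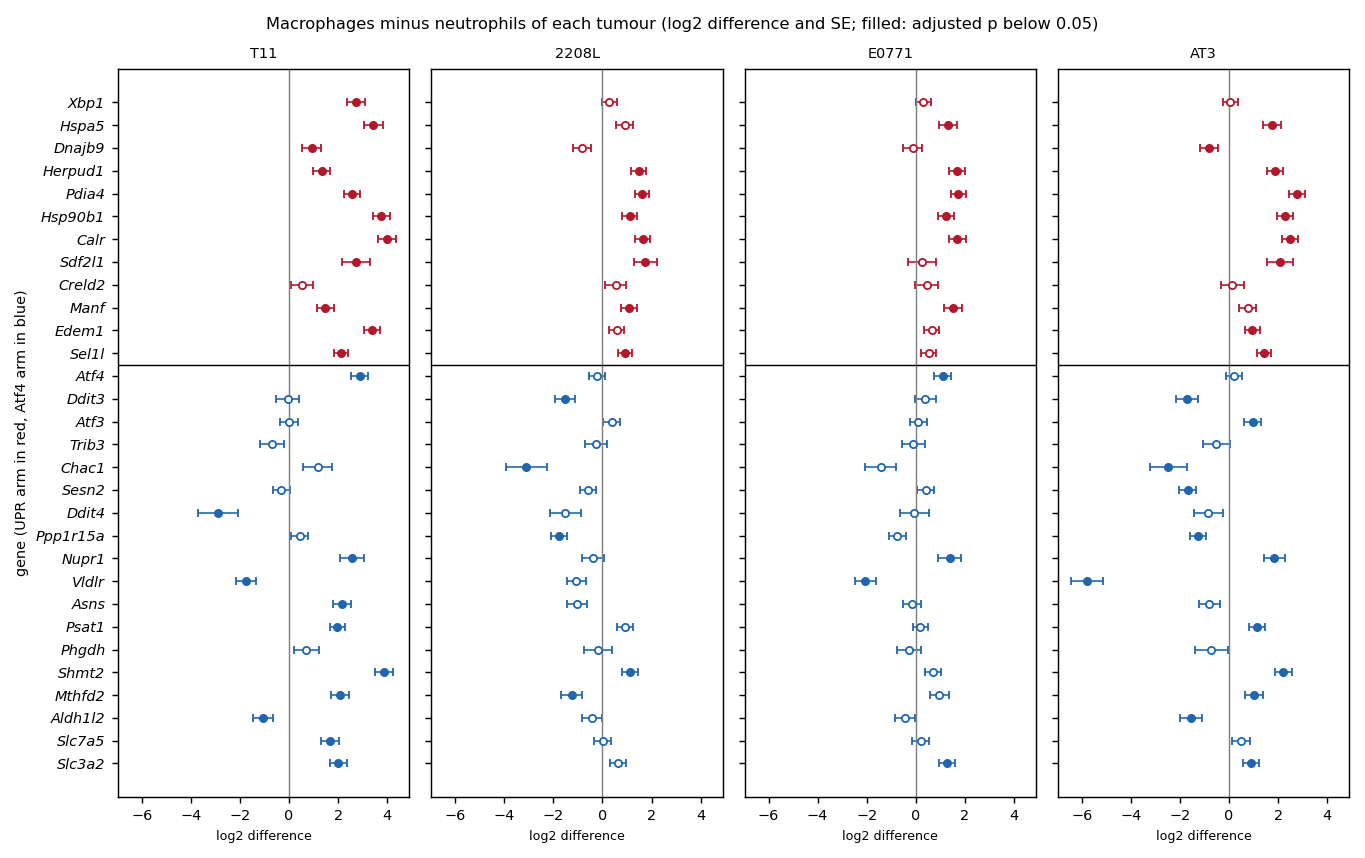
Macrophages minus neutrophils within each tumour, as log2 difference ± SE per member (filled points, adjusted p under 0.05; red, unfolded protein arm; blue, Atf4 arm). Red points lie above 0 in all 4 tumours except a few, most of all in T11, and blue points spread to both sides. The Vldlr point of AT3 rests on 2 macrophage counts and is no measure of size.

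Sorted cells were also set against the cultured lines of the same 4 tumours. These contrasts differ in growth site, sort and RNA kit (microprep for sorted cells, miniprep for lines), which cannot be told apart from cell type, and both share the line libraries. In macrophages 4 unfolded protein genes were higher and 7 lower, and 5 Atf4 arm genes higher and 12 lower, where 18.9% of all genes were higher and 35.6% lower. In neutrophils 1 was higher and 10 lower, and 5 higher and 11 lower, where 52.9% of all genes were higher and 34.6% lower. Phgdh had the widest difference from lines in both, -5.53 ± 0.18 in macrophages and -5.40 ± 0.18 in neutrophils. No sorted library passed 34.4 CPM of Phgdh, and no line library was below 321.

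Other serine and asparagine genes followed in both cell types. In macrophages Psat1 (-2.95 ± 0.13), Asns (-2.80 ± 0.15) and Mthfd2 (-2.64 ± 0.13) were lower than in lines, and in neutrophils Psat1 (-3.99 ± 0.14), Mthfd2 (-3.33 ± 0.14) and Asns (-2.83 ± 0.15). Chaperones were lower too, with Hsp90b1 at a difference of -1.94 ± 0.13 in macrophages and -4.03 ± 0.14 in neutrophils. Some stress genes were higher: Atf3 by 3.32 ± 0.17 in macrophages and 2.97 ± 0.18 in neutrophils, Ppp1r15a by 1.19 ± 0.15 and 2.04 ± 0.15, and Sesn2 by 1.06 ± 0.16 and 1.62 ± 0.15. Other stress genes were lower: Ddit4 at -1.97 ± 0.26 in macrophages and -0.63 ± 0.22 in neutrophils, and Trib3 at -1.26 ± 0.18 and -0.85 ± 0.17. Chac1 was lower in macrophages (-1.40 ± 0.30), and its difference in neutrophils was 0.08 ± 0.23 (adjusted p = 0.755). Of the unfolded protein arm Dnajb9 was higher by 1.37 ± 0.16 and 1.60 ± 0.17. Xbp1 was higher in macrophages (0.67 ± 0.13), and its difference in neutrophils was -0.16 ± 0.13 (adjusted p = 0.242). The count higher in neutrophils was 11 with factors from well expressed genes and 13 with none. In neutrophils 12 and in macrophages 11 of the 12 tRNA synthetases were lower than in lines.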

How the data were processed

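RNA-seq counts per gene symbol for the 48 libraries were used as deposited by the authors, who per the submitters' processing notes made reads with bcl2fastq 2.17 and used STAR 2.4.2a and the mm10 mouse genome. The counting program, its annotation and its use of strand are not given in the sources used here, so reads of overlapping or antisense genes may be shared. Columns were matched to samples by title, and those named PyMTE were matched to PyMT-N by elimination. Rn45s was left out of totals and tests.

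The test was the quasi-likelihood F test of edgeR 4.0.16 on the counts. Genes were kept by filterByExpr, given the groups, with a minimum count of 10 and a total of at least 15. TMM factors were used, and p-values were adjusted by Benjamini-Hochberg across every gene in the fit. Separate fits held the 24 line libraries, the 24 sorted libraries, and these with the 4 matching lines (36). The SE is the absolute log2 difference over the square root of F. Levels used TMM factors over all 48 libraries. Files were compared between replicates, and 0 of 48 pairs were identical. Counts were also simulated with the same spread for every gene, changing only genes above a floor of expected counts. There, 91% of 100 genes changed by a log2 of 1 were called in 2208L against T11 lines (17408 genes). This is no measure of power in the real libraries, whose spread differs between groups.

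The 30 members and the related gene lists were chosen with earlier results of these data known. All members could be named, with full statistics for at most 6 passing members per arm and comparison and at most 3 genes per related list. DESeq2 1.42.0, other factors, other filters, other sample sets, a replicate block and leaving out each library were the alternatives. Leaving out all T11 or all 2208L libraries, and fitting with no factors, were added after the data were seen. Same-numbered neutrophil and macrophage libraries of a tumour also share the leading number of their column names. They may come from the same animal, which the labels do not say, and the main tests used no pairing. In macrophages against neutrophils with a block by tumour and number, 2 named calls were lost by edgeR. These were Mthfd2 in 2208L (adjusted p = 0.069) and Nupr1 in E0771 (adjusted p = 0.0711). Promoters and 30-base windows came from RefSeq for GRCm38.p6, and exon lengths from GENCODE M21.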

Additional observations from a re-analysis of the deposited data

Results flagged for a closer look

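The difference between macrophages and neutrophils was not the same in the 4 tumours for 19 of the 30 members, by a test of the difference itself (edgeR quasi-likelihood, 3 libraries of each cell type and tumour). In the unfolded protein arm the adjusted p was 4.22e-05 for Xbp1, 0.000586 for Hspa5, 0.0222 for Dnajb9, 2.43e-05 for Hsp90b1, 0.000289 for Calr, 2.66e-06 for Edem1 and 0.015 for Sel1l. Edem1 was higher in macrophages by 3.36 ± 0.32 in T11, and its difference was 0.57 ± 0.30 in 2208L, 0.66 ± 0.30 in E0771 and 0.95 ± 0.30 in AT3.

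Among stress genes and regulators of the Atf4 arm the adjusted p was 9.48e-06 for Atf4, 0.0101 for Ddit3, 0.00255 for Chac1, 0.00589 for Sesn2, 0.00271 for Ppp1r15a, 0.00288 for Nupr1 and 0.000159 for Vldlr. Ppp1r15a had a difference of 0.43 ± 0.34 in T11, -1.77 ± 0.34 in 2208L, -0.75 ± 0.34 in E0771 and -1.27 ± 0.33 in AT3. It was lower in macrophages of 2208L and AT3, and did not pass in T11 or E0771.

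Among the amino acid genes the adjusted p was 2.67e-05 for Asns, 0.0157 for Psat1, 4.78e-06 for Shmt2, 0.000103 for Mthfd2 and 0.0355 for Slc7a5. Asns had a difference of 2.17 ± 0.37 in T11, -1.02 ± 0.41 in 2208L, -0.17 ± 0.37 in E0771 and -0.80 ± 0.41 in AT3. Mthfd2 had a difference of 2.07 ± 0.36 in T11, -1.26 ± 0.42 in 2208L, 0.96 ± 0.39 in E0771 and 1.02 ± 0.35 in AT3. With T11 tumours left out, a choice made after the data were seen, 4 of the 19 passed: Ddit3 (adjusted p = 0.0333), Sesn2 (0.0151), Vldlr (0.00179) and Mthfd2 (0.0292). That fit had fewer libraries, and its count is not set against all genes. T11 neutrophils had the highest receptor share, 15370 ± 3099 CPM, and the part of this share in these differences was not tested. Macrophage markers in neutrophils summed to means of 461 CPM in T11, 662 in E0771, 2414 in AT3 and 4832 in 2208L. Their part was not tested either.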

How the results depend on the processing

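Of 166 named member differences, 3195 values were computed under alternatives: 3046 kept the call, 149 lost it and 0 reversed. Of 480 group levels, 313 moved by more than the spread of replicates with no scaling factors. In counts of members that moved by over 1.5 times, the cause was not tested.

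In lines, AT3 against E0771 had 4 higher with factors from well expressed genes or none, 1 with all 48 libraries fitted together, and 1 to 2 leaving out 1 library. 4T1 against 67NR had 2 higher, and 2208L against T11 2 lower, with all 48 fitted, and the latter 3 to 4 leaving out 1 library. In neutrophils of 2208L against T11 the number higher was 12 to 18 leaving out 1 library, and with no factors 9 were higher and 1 lower. In neutrophils of AT3 against E0771 the number higher was 5 with all 48 fitted, 1 with no factors, 0 with only the groups compared and 0 to 5 leaving out 1 library, and the number lower was 1 with Rn45s kept and 1 to 2 leaving out 1 library.

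In macrophages of 2208L against T11 the number higher was 9 with RLE factors, factors from well expressed genes, DESeq2 or all 48 fitted, and 8 with only the groups compared or no factors, and the number lower was 5 to 7 leaving out 1 library. In macrophages of AT3 against E0771 the number higher was 3 with RLE factors or those from well expressed genes, 10 with all 48 fitted, 2 with only the groups compared, 0 with no factors and 0 to 6 leaving out 1 library. The number lower was 11 with no factors and 3 to 6 leaving out 1 library.

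For macrophages against neutrophils in T11, 5 were lower with RLE factors, factors from well expressed genes or DESeq2, and 8 with none. In E0771, 2 were lower with RLE factors, factors from well expressed genes, all 48 fitted or only the groups compared, and 3 with DESeq2 or no factors. In 2208L, 8 were lower with all 48 fitted, and 4 were higher and 7 lower with no factors. Leaving out 1 library there gave 2 to 9 higher and 1 to 3 lower. In AT3, 9 were higher with only the groups compared or no factors, and 11 lower with no factors. Averaged over tumours, 12 were lower with no factors. Neutrophils against lines had 11 higher with factors from well expressed genes and 13 with none. With T11 tumours left out, in a fit with fewer libraries, 10 members differed among neutrophils and 4 in the difference between tumours. Those counts are not set against all genes, so they say little about the members as a set.

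Same-numbered neutrophil and macrophage libraries had correlations of -0.114 to 0.156, 2 of 12 were over 0.1, and 3 of 12 libraries correlated best with their own number. With the replicate number as a block, the number higher became 1 in AT3 against E0771 neutrophils and 3 in the same contrast of macrophages, and no other count moved by over 1.5 times. With no factors the all-gene median moved by 1.12 in neutrophils against lines, -1.22 in macrophages against neutrophils of T11 and -0.72 in neutrophils of 2208L against T11, and by -0.26 to 0.20 in lines. The share of higher calls over all genes went with no factors from 51.7% to 33.3% in PyMT-N against PyMT-M and from 54.0% to 44.2% in 2208L against T11 lines. The 470712 to 1185233 counts of a neutrophil library limit low members such as Chac1 and Phgdh most.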
